A study of Homo sapiens with 6 samples.

Results

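The genes described here are the E2F transcription factors and the controllers of cyclin E-CDK2, the kinase that starts DNA replication. They are 10 genes chosen by name: E2F1, E2F2, E2F3, E2F7, E2F8, CCNE1, CCNE2, CDK2, CDKN1B and CDC25A. All 10 were found among the 58302 gene entries of the count table, and all 10 were among the 15063 genes that passed the filter on low counts. Expression was measured by RNA sequencing in Ker-CT, a line of human keratinocytes made immortal by introduced telomerase and CDK4 genes. In 3 libraries the cells had received siRNA against KMT2C, a histone H3 lysine 4 methyltransferase (siKMT2C), and in 3 they had received a negative-control siRNA (siNC). Cells of both groups were exposed for 24 h to the M5 mixture, which holds oncostatin M, TNF-α, IL-22, IL-1α and IL-17A at 10 ng/ml each and is used to model psoriasis in culture. The series title puts the question of what KMT2C depletion does to gene expression in such cells. No culture without cytokines was among those analysed, and the labels do not say whether libraries of a group came from separate cultures, so p-values measure the spread between these libraries only.

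E2F factors bind the promoters of genes needed to enter S phase. In resting cells pocket proteins of the retinoblastoma family hold them in check, and phosphorylation of those proteins, first by cyclin D with CDK4 or CDK6 and then by cyclin E with CDK2, releases them. E2F1, E2F2 and E2F3 activate transcription, E2F7 and E2F8 are atypical members that repress it, and cyclin E and CDC25A are themselves known E2F targets, so the circuit feeds back on itself. CDKN1B (p27) binds and blocks cyclin E-CDK2, while the phosphatase CDC25A removes inhibitory phosphates from CDK2. In epidermis this circuit separates dividing basal keratinocytes from those that have left the cycle. Ker-CT cells of both groups carry an introduced CDK4 gene, and CDK4 acts upstream of the E2F factors.

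The promoters of several members hold E2F sites of their own, which are shown here because E2F genes, cyclin E and CDC25A are known as E2F targets. RefSeq promoter windows (GRCh38.p14, from 250 bases before to 50 after each annotated start) were at hand for 7 of the 10 members, as 8 windows, because E2F3 has 2 annotated starts. An E2F site was searched as TTTCCCGC, TTTCGCGC, TTTGCCGC or TTTGGCGC on both strands. At least 1 was found in 4 of the 8 windows, those of E2F1, E2F2, E2F3 (the upstream start) and CDC25A, against 3.31% of all 35116 windows of that length. The 60-base stretches below run 5′ to 3′ on the gene's strand, and capitals mark the matched bases.
E2F1: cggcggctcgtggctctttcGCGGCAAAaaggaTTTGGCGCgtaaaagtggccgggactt
E2F2: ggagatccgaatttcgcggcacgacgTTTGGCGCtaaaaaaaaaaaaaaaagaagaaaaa
E2F3: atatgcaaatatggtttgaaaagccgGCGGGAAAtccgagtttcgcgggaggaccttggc
CDC25A: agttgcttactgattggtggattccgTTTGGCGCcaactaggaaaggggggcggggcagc
The stretches lie at chr20:33686379-33686438 (minus strand, E2F1), chr1:23531242-23531301 (minus strand, E2F2), chr6:20401800-20401859 (plus strand, E2F3) and chr3:48188428-48188487 (minus strand, CDC25A). The E2F1 stretch has 2 matches on opposite strands, whose first bases lie 33 and 20 bases before the start. The E2F2, CDC25A and E2F3 matches begin 42, 44 and 53 bases before theirs, and the E2F3 match is on the opposite strand.

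No E2F match was in the windows of E2F7, CCNE1, CDKN1B or the downstream start of E2F3. The CCAAT box, searched as CCAAT on both strands, was in 5 of the 8 windows against 34.6% of all windows. The GC box GGGCGG was in 7 of 8 against 45.0%, with 7 copies in the CCNE1 window and 6 in that of E2F1. None of the E2F matches overlapped a CCAAT or GGGCGG match, and 1 CCAAT and 1 GGGCGG in the E2F7 window shared bases. The matches are letters in these windows only and say nothing of binding in these cells.

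Library totals ran from 15921870 to 16414777 counts in siKMT2C and from 14409277 to 17539519 in siNC. KMT2C itself was at 32.0, 30.8 and 27.3 CPM (counts scaled to a common library size after TMM normalization) in siKMT2C libraries 1 to 3, against 87.9, 82.0 and 72.6 CPM in siNC libraries 1 to 3. It fell by 1.43 on the log2 scale (SE 0.14, edgeR quasi-likelihood adjusted p = 0.00786), and the call was lost without siKMT2C replicate 1 (adjusted p = 0.0634), siKMT2C replicate 2 (0.0507) or siNC replicate 2 (0.0593). siNC replicate 3 stood apart from its group: its Spearman correlation of log2 CPM was 0.967 and 0.974 with siNC replicates 1 and 2, which correlated at 0.986 with each other, and 0.977 with siKMT2C replicate 3. Results are therefore also given without it. All 8 keratinocyte markers listed, KRT5 and KRT14 among them, were above 1 CPM in every library. Their summed level was 15570 to 21431 CPM in siKMT2C and 15344 to 23527 CPM in siNC. Within the list, TP63 (log2 fold change -0.69) and DSP (-0.37) were lower in siKMT2C without overlap (background 12.3%). PERP (0.62) was higher without overlap (background 11.8%), and the rest overlapped. By edgeR none of these markers was called (background 1.5%). Of 6 fibroblast markers 2 were above 1 CPM in every library, and their summed level was 13.2 to 17.3 CPM in siKMT2C and 20.4 to 30.4 CPM in siNC, mostly COL1A1. Of 6 markers each, 3 were at 0 in every library for endothelium (PECAM1, CDH5, TIE1) and melanocytes (TYR, DCT, SOX10). The other melanocyte markers were detected: PMEL held 122 counts over the 6 libraries, MLANA 103 and TYRP1 48. The summed melanocyte level was 2.03 to 3.06 CPM in siKMT2C and 2.31 to 3.38 CPM in siNC. That of endothelium was 0 to 0.128 CPM in siKMT2C and 0.0692 to 0.338 CPM in siNC. The part of non-keratinocyte transcripts in the values below was not tested.

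None of the 10 members passed the test between siKMT2C and siNC (edgeR, Benjamini-Hochberg adjusted p under 0.05 over all genes tested), where 1.5% of all tested genes did. Of all tested genes 0.69% were called higher and 0.81% lower. By unadjusted p under 0.05, 1 member was counted, CDKN1B, on the lower side, against 16.9% of all tested genes (7.91% higher and 9.01% lower). DESeq2 called 1 member, again CDKN1B, against 5.79% of genes, and limma-voom called 0 against 1.41%. By sign, 7 members were higher in siKMT2C and 3 lower (E2F3, CDK2 and CDKN1B). Their median log2 fold change was 0.26 (range -0.52 to 0.81), against -0.003 over all genes tested. The libraries of the groups did not overlap in 4 members, against 24.1% of all genes tested. E2F7 and CCNE1 were the 2 on the higher side (background 11.8%), and CDK2 and CDKN1B the 2 on the lower side (background 12.3%). In bulk RNA, fewer cells with a transcript and less of it per cell cannot be told apart.

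**Figure D1:**
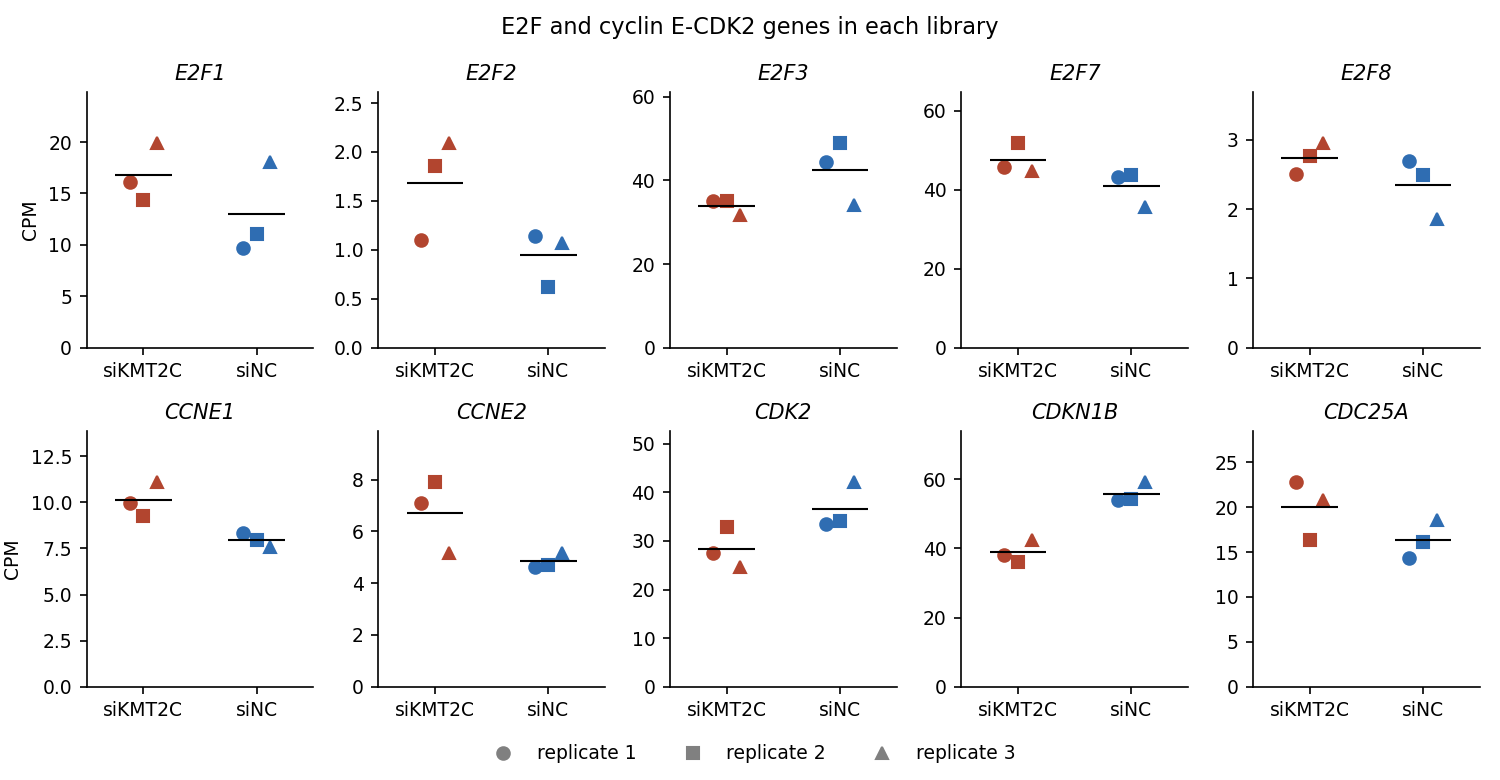
CPM of each of the 10 genes (vertical axes, each from 0) in the 3 siKMT2C libraries (left, red) and the 3 siNC libraries (right, blue), with replicate number as symbol and the group mean as a line. CDKN1B has the clearest gap, with 36.0 to 42.5 CPM in siKMT2C and 54.1 to 59.2 CPM in siNC, while E2F1 overlaps because siNC replicate 3 is at 18.1 CPM.

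CDKN1B, the p27 inhibitor of cyclin E-CDK2, was the member with the smallest p (ENSG00000111276, chromosome 12, 12715058 to 12722371, GRCh38). It had 38.1, 36.0 and 42.5 CPM in siKMT2C libraries 1 to 3, against 54.1, 54.3 and 59.2 CPM in siNC libraries 1 to 3. Every siKMT2C library lay below every siNC library, and each group was tight (38.9 ± 3.30 CPM in siKMT2C and 55.9 ± 2.91 CPM in siNC, SD, n = 3 each). The log2 fold change was -0.52 (SE 0.13, 95% interval -0.83 to -0.22, edgeR adjusted p = 0.10), which is 69.6% of the siNC level (95% interval 56.4% to 85.8%). That is short of the threshold. It passed with DESeq2 (adjusted p = 0.0243) and after correction for transcript GC content and length (edgeR adjusted p = 0.0202, where 8.93% were called). Without siNC replicate 3 the log2 fold change was -0.49 (edgeR adjusted p = 0.0839).

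CDK2, the kinase, was also lower in siKMT2C (ENSG00000123374, chromosome 12, 55966769 to 55972784). Its levels were 27.5, 32.8 and 24.7 CPM in siKMT2C and 33.5, 34.1 and 42.1 CPM in siNC. The groups did not overlap, but siKMT2C replicate 2 and siNC replicate 1 nearly met. The log2 fold change was -0.37 (SE 0.17, 95% interval -0.75 to 0.01, edgeR adjusted p = 0.311), and -0.26 without siNC replicate 3. CDK2 overlaps the melanosome gene PMEL on the opposite strand, which held 122 counts over the 6 libraries beside 3188 for CDK2.

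The E-type cyclins, the activating partners of CDK2, were both higher in mean level. CCNE1 (ENSG00000105173, chromosome 19, 29811898 to 29824308) had 9.97, 9.25 and 11.1 CPM in siKMT2C, against 8.35, 7.96 and 7.60 CPM in siNC. The groups were separate, with a log2 fold change of 0.34 (SE 0.16, 95% interval -0.03 to 0.72, edgeR adjusted p = 0.342). CCNE2 (ENSG00000175305, chromosome 8, 94879770 to 94896678) had 7.09, 7.90 and 5.16 CPM in siKMT2C, against 4.63, 4.71 and 5.18 CPM in siNC. siKMT2C replicate 3 was at the level of siNC, so the groups overlapped (log2 fold change 0.47, SE 0.21, 95% interval -0.02 to 0.97, edgeR adjusted p = 0.317). CCNE2 overlaps the protein-coding genes INTS8 and NDUFAF6 on the opposite strand. Over the 6 libraries these held 8867 and 915 counts, beside 564 for CCNE2. Strand use in counting is not stated in the sources used here, so the CCNE2 level is uncertain.

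CDC25A, the CDK2-activating phosphatase (ENSG00000164045, chromosome 3, 48157146 to 48188402), had 22.8, 16.4 and 20.8 CPM in siKMT2C and 14.3, 16.1 and 18.6 CPM in siNC. siKMT2C replicate 2 lay inside the siNC range. The log2 fold change was 0.29 (SE 0.18, 95% interval -0.13 to 0.71, edgeR adjusted p = 0.482), and 0.19 without siKMT2C replicate 1.

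**Figure D2:**
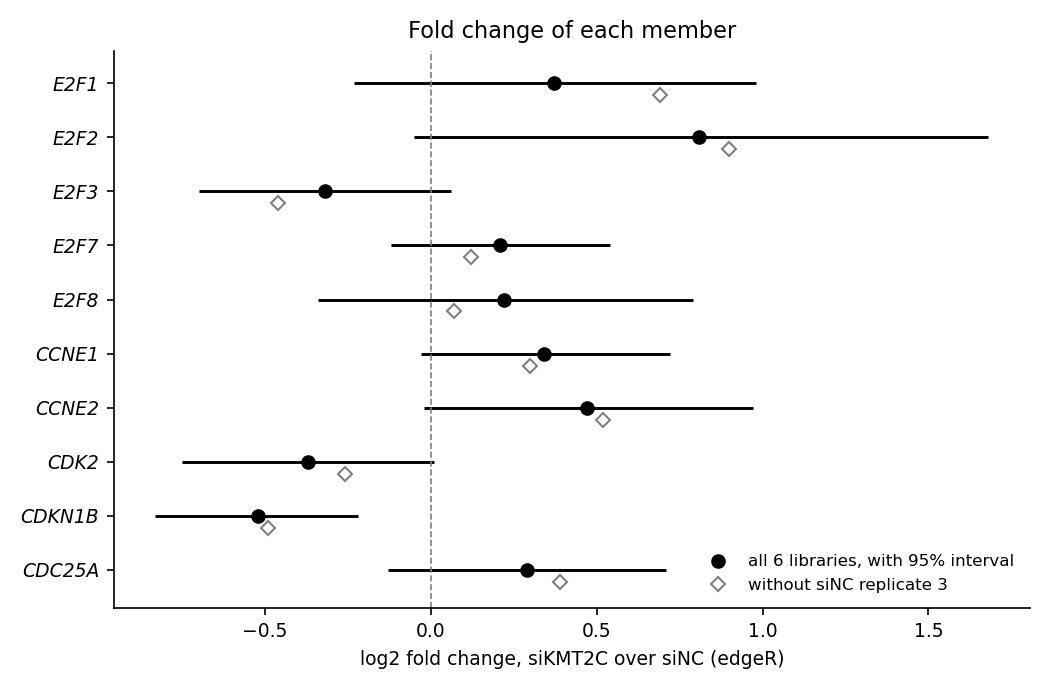
Log2 fold change of siKMT2C over siNC (horizontal axis, edgeR) for each member, with the 95% interval of the 6-library fit as a bar and the value without siNC replicate 3 as an open diamond. The interval of CDKN1B (-0.83 to -0.22) is the one that leaves out 0, and the E2F1 value is 0.69 without siNC replicate 3, against 0.37 with all libraries.

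The activator E2F genes differed in the sign of their fold changes, and none passed the test. E2F1 (ENSG00000101412, chromosome 20, 33675683 to 33686404) had 16.1, 14.4 and 19.9 CPM in siKMT2C, against 9.67, 11.1 and 18.1 CPM in siNC. All siKMT2C libraries lay above siNC replicates 1 and 2, and siNC replicate 3 lay within the siKMT2C range. The log2 fold change was 0.37 (SE 0.26, 95% interval -0.23 to 0.98, edgeR adjusted p = 0.523), and 0.69 (SE 0.20, edgeR adjusted p = 0.103) without siNC replicate 3. It was 0.20 without siNC replicate 1 and 0.23 without siKMT2C replicate 3, so its size hinged on single libraries. After correction for transcript GC content and length it was 0.49 (edgeR adjusted p = 0.0549, where 8.93% of genes were called).

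E2F3 (ENSG00000112242, chromosome 6, 20401906 to 20493715) ran the other way. It had 35.0, 35.1 and 31.8 CPM in siKMT2C and 44.3, 48.9 and 34.2 CPM in siNC, where replicate 3 again departed from its group towards siKMT2C. The log2 fold change was -0.32 (SE 0.16, 95% interval -0.70 to 0.06, edgeR adjusted p = 0.374), and -0.46 (SE 0.13, edgeR adjusted p = 0.0906) without siNC replicate 3, but -0.21 without siNC replicate 2. Counts of the 2 E2F3 starts are summed in this table, so its isoforms were not told apart.

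E2F2 (ENSG00000007968, chromosome 1, 23506430 to 23531220) was the scarcest member, with 18, 29 and 34 counts in siKMT2C libraries and 20, 9 and 19 counts in siNC libraries. In CPM this was 1.10, 1.86 and 2.09 in siKMT2C and 1.14, 0.623 and 1.07 in siNC. Its log2 fold change was the largest of the 10 in size at 0.81 and also the least certain (SE 0.37, 95% interval -0.05 to 1.68, edgeR adjusted p = 0.323). siKMT2C replicate 1 lay within the siNC range.

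Among the activators, E2F1 supplied more of the summed FPKM (counts scaled by library size and a gene length, as deposited) in siKMT2C. Its share was 68.5%, 64.9% and 73.4% in siKMT2C libraries, against 51.0%, 52.6% and 71.4% in siNC libraries. E2F3 made up 29.5%, 31.4% and 23.2% in siKMT2C and 46.3%, 46.1% and 26.8% in siNC. By deposited FPKM the split was near even in siNC replicates 1 and 2, and siNC replicate 3 resembled the siKMT2C libraries. The gene lengths behind the FPKM are not given, and the shares hinge on them. In siNC replicate 1, E2F3 had 44.3 CPM at a longest coding transcript of 4749 bases, and E2F1 9.67 CPM at 2503 bases. Their deposited FPKM were 3.54 and 3.90. The shares are therefore read between libraries and do not show which activator is the more abundant. Across the 6 libraries, log2 CPM of E2F1 and E2F3 ran opposite ways (Pearson r = -0.92, a description over libraries that share these groups).

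The atypical repressors had the smallest log2 fold changes of the 10 in size. E2F7 (ENSG00000165891, chromosome 12, 77021247 to 77065580) had 45.7, 51.8 and 44.8 CPM in siKMT2C, against 43.3, 43.7 and 35.6 CPM in siNC. The groups were separate by a narrow margin (log2 fold change 0.21, SE 0.14, 95% interval -0.12 to 0.54, edgeR adjusted p = 0.506), and the value was 0.12 without siNC replicate 3. E2F8 (ENSG00000129173, chromosome 11, 19224063 to 19241620) was low, with 2.51, 2.76 and 2.95 CPM in siKMT2C and 2.69, 2.49 and 1.86 CPM in siNC, and the groups overlapped. Its log2 fold change was 0.22 (SE 0.24, 95% interval -0.34 to 0.79, edgeR adjusted p = 0.702), with 0.07 without siNC replicate 3 and 0.34 without siNC replicate 1.

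By deposited FPKM, CDKN1B was the highest member in both groups, at 8.89 ± 0.811 FPKM in siKMT2C and 13 ± 0.730 FPKM in siNC (SD, n = 3 each). E2F1 followed at 6.64 ± 1.15 FPKM in siKMT2C and 5.22 ± 1.84 FPKM in siNC. E2F7, E2F3, CDK2 and CDC25A formed a middle group at mean FPKM of 2.45 to 4.16 in siKMT2C and 3.22 to 3.66 in siNC. In siNC each neighbouring pair of these 4 overlapped in its libraries. In siKMT2C, CDC25A lay above E2F3 without overlap, while E2F7 overlapped CDC25A, and CDK2 overlapped both E2F3 and CCNE1. CCNE1 averaged 2.06 FPKM in siKMT2C and 1.65 FPKM in siNC, and CCNE2 1.03 FPKM in siKMT2C and 0.760 FPKM in siNC. E2F8 and E2F2 came last, and from CCNE1 down each gene was separate from the next in both groups. In siNC, CDKN1B exceeded 84.6% of tested genes in FPKM and E2F2 4.38%. This order hinges on the gene lengths behind the deposited FPKM, and other lengths could change it. In siNC, CDK2 averaged 36.6 CPM at a longest coding transcript of 2296 bases, and E2F1 12.9 CPM at 2503 bases. By deposited FPKM, E2F1 was still the higher of these, at 5.22 against 3.22.

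**Figure D3:**
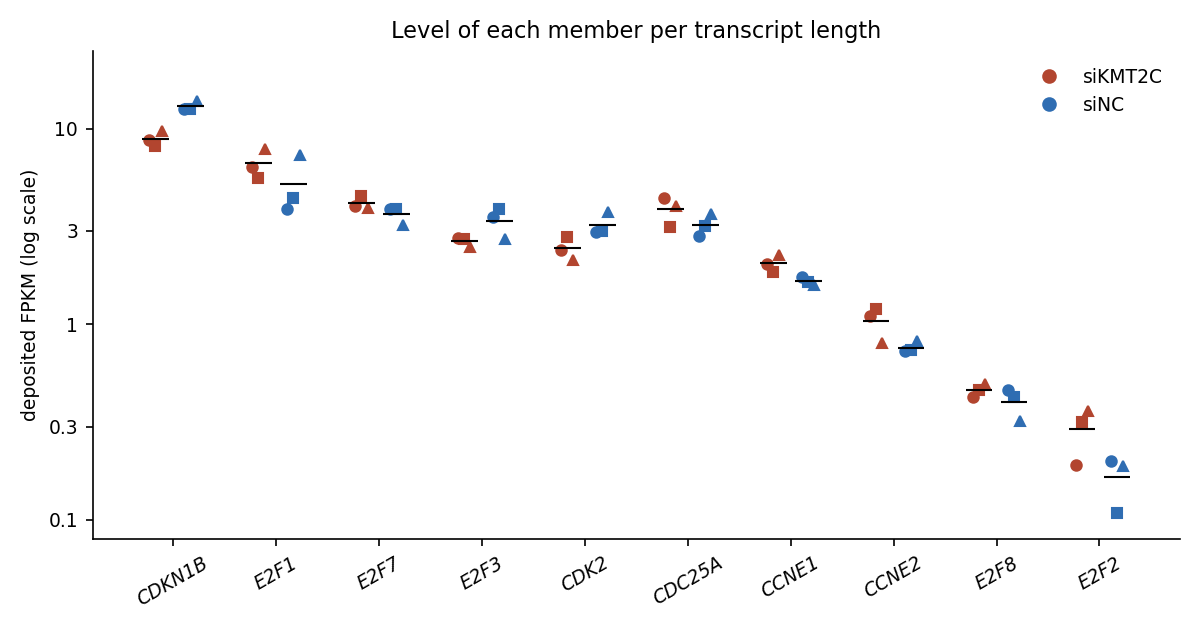
Deposited FPKM of each member (vertical axis, log scale) in the siKMT2C libraries (red, left of each pair) and the siNC libraries (blue, right), with group means as lines and replicates 1, 2 and 3 as circles, squares and triangles. The members span mean levels of 0.290 to 8.89 FPKM in siKMT2C and 0.166 to 13 FPKM in siNC. The order of genes hinges on the gene lengths behind the deposited FPKM, which were not the longest coding transcripts throughout.

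Opposite small differences in cyclin E and CDKN1B added up when set against each other within a library. The summed FPKM of CCNE1 and CCNE2 over that of CDKN1B was 0.358, 0.376 and 0.315 in siKMT2C, against 0.195, 0.189 and 0.173 in siNC. The groups did not overlap, and the geometric mean of the ratio was 1.88-fold higher in siKMT2C. This is a ratio of transcripts, given as a description with no test because it combines members chosen together. The balance of the E-type cyclins, CCNE1 over CCNE2, was 1.86, 1.55 and 2.85 in siKMT2C and 2.38, 2.24 and 1.94 in siNC, and it overlapped. Activator over atypical E2F transcripts gave 2.09, 1.75 and 2.42 in siKMT2C and 1.76, 1.95 and 2.90 in siNC, also overlapping (difference of mean log2 ratios -0.06). In CPM, where no gene length is taken out, the same ratio was 1.08, 0.942 and 1.13 in siKMT2C and 1.20, 1.31 and 1.42 in siNC, without overlap (-0.32).

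CDC25A was also set against its relative CDC25B, a phosphatase that acts mainly at entry into mitosis. The FPKM ratio of CDC25A over CDC25B was 0.329, 0.255 and 0.269 in siKMT2C and 0.122, 0.132 and 0.0965 in siNC, a geometric mean 2.44-fold higher in siKMT2C. Most of that came from CDC25B, at 121, 112 and 135 CPM in siKMT2C and 206, 213 and 338 CPM in siNC. The CDC25B log2 fold change was -1.04 (SE 0.21, edgeR adjusted p = 0.0576), -1.04 with DESeq2 (adjusted p = 0.000448) and -0.78 without siNC replicate 3 (edgeR adjusted p = 0.0179).

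**Figure D4:**
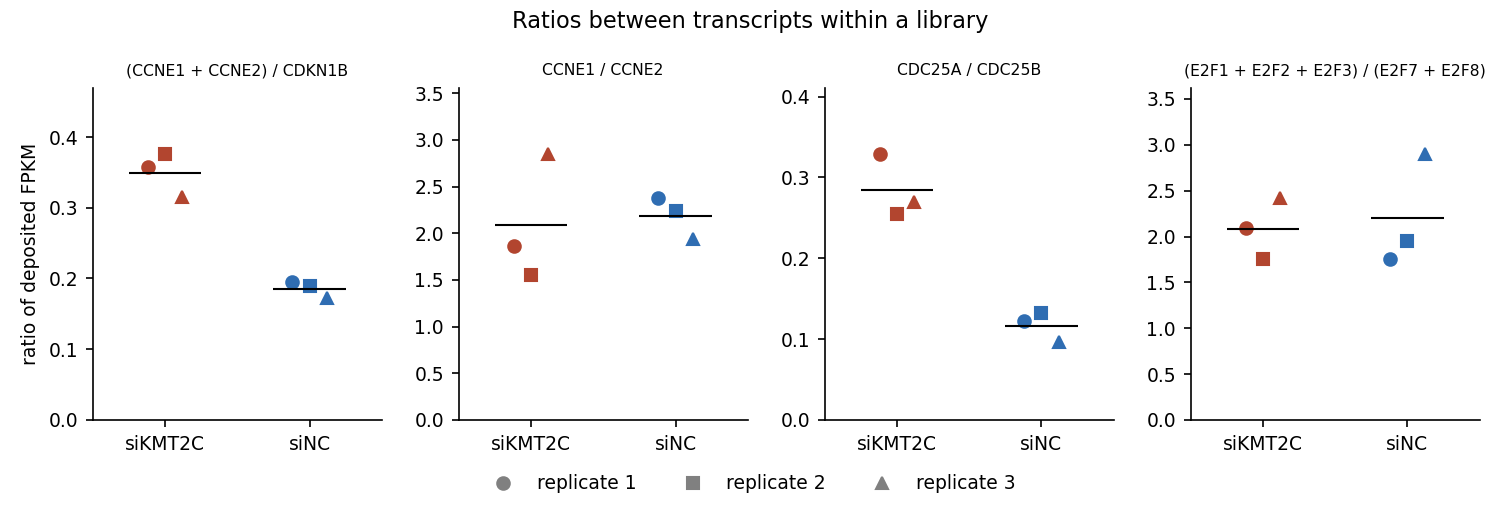
Ratios of deposited FPKM between transcripts of the same library (vertical axes, each from 0), siKMT2C left and siNC right, replicate number as symbol and group mean as a line. Cyclin E over CDKN1B and CDC25A over CDC25B separate the groups, while CCNE1 over CCNE2 and activator over atypical E2F overlap.

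The wider CDK2 network was read from lists of textbook genes. Of 20 genes for cyclin A and other CDK2 regulators, 19 were tested and 0 were called by edgeR, with 13 higher and 6 lower in sign (median log2 fold change 0.16). At unadjusted p under 0.05, 2 of the 19 were higher (background 7.91%) and 4 lower (background 9.01%), and the groups did not overlap in 5 (background 24.1%), a share near that of all genes tested. The smallest p-values were those of CDC25B, the CDK inhibitor CDKN1C, the F-box protein SKP2 and the p53-induced inhibitor CDKN1A. SKP2, which marks the CDKN1B protein for destruction, had 73.3, 45.9 and 81.6 CPM in siKMT2C, against 40.3, 43.3 and 28.8 CPM in siNC. Its groups were separate (log2 fold change 0.84, SE 0.25, edgeR adjusted p = 0.143, and DESeq2 adjusted p = 0.0338).

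The other inhibitors of the CDKN1 family were on the same side as CDKN1B. CDKN1A averaged 548 ± 8.64 CPM in siKMT2C and 710 ± 88.7 CPM in siNC (log2 fold change -0.37, SE 0.12, edgeR adjusted p = 0.184). CDKN1C was scarce, at 1.31 ± 0.212 CPM in siKMT2C and 2.70 ± 0.520 CPM in siNC (SD, n = 3 each; log2 fold change -1.04, SE 0.28, edgeR adjusted p = 0.116). In all 3 CDKN1 genes every siKMT2C library was below every siNC library (background 12.3%), and edgeR called none of them (background 1.5%).

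Of the 8 other E2F, DP and pocket protein genes, edgeR called 0 (background 1.5%). By sign 3 were higher and 5 lower (median -0.10), where 49.7% of all genes tested were higher. At unadjusted p under 0.05 there was 1, on the higher side (background 7.91%). That 1 was TFDP1, the DNA-binding partner of the E2F factors, at 66.1, 69.6 and 113 CPM in siKMT2C and 57.0, 54.3 and 56.1 CPM in siNC. Its log2 fold change was 0.57 (SE 0.21, edgeR adjusted p = 0.227), with siKMT2C replicate 3 well above the rest, and 0.28 without that library (edgeR adjusted p = 0.431). RBL1, a pocket protein that is itself an E2F target, had 0.32 (SE 0.19), E2F4, a repressive E2F, -0.24 (SE 0.16), and TFDP2 -0.16 (SE 0.12). Of the 8 genes of the DREAM and MYB-MuvB complexes, which hold E2F and late cell cycle promoters, 6 were higher in sign (background 49.7%). By edgeR 0 of them were called (background 1.5%). The mitotic factor FOXM1 led them with 0.83 (SE 0.24, edgeR adjusted p = 0.142, and DESeq2 adjusted p = 0.0357), followed by MYBL2 with 0.51 (SE 0.19, edgeR adjusted p = 0.231).

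The cyclin D list upstream of the E2F factors had 9 tested genes, none of them called by edgeR (background 1.5%). By sign 5 were higher and 4 lower, with a median log2 fold change of 0.03. At unadjusted p under 0.05 there were 3, all lower (background 9.01%). These were CDKN2B, an inhibitor of CDK4 and CDK6, with -0.69 (SE 0.21), CCND1 with -0.38 (SE 0.12) and CCND2 with -0.30 (SE 0.11). CDKN2A, another gene of this list, had 276, 243 and 162 CPM in siKMT2C and 90.4, 102 and 476 CPM in siNC. Its groups overlapped (log2 fold change 0.03, SE 0.6). CDK4, of which the line carries an introduced gene, was at 73.6 ± 7.33 CPM in siKMT2C and 66.4 ± 6.55 CPM in siNC (SD, n = 3 each). Its log2 fold change was 0.15 (SE 0.14, edgeR adjusted p = 0.657). The part of the introduced gene in these counts was not tested.

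The 44 G1/S genes listed as E2F targets were higher in sign throughout, 44 of 44, against 49.7% of all genes tested, with a median log2 fold change of 0.38. Of these, 2 rose by the edgeR test, the licensing factor CDC6 and CDC45, a subunit of the active replicative helicase, where 0.69% of all genes tested were called higher. The groups were separate in 23, all higher, against a background of 11.8%. CDC6 had a log2 fold change of 0.90 (SE 0.13, edgeR adjusted p = 0.0263) and CDC45 of 0.88 (SE 0.16, edgeR adjusted p = 0.0452). Both calls were lost on leaving out any library except siNC replicate 3, with adjusted p of 0.0741 to 0.142 for CDC6 and 0.0977 to 0.178 for CDC45. These genes tend to be used in the same cells at the same time, so their signs are not independent of each other. RefSeq promoter windows were at hand for 38 of the 44 genes, and 21 of these had an E2F 8-mer. By window, 22 of 55 held one, against 3.31% of all windows. The members with such a match had log2 fold changes of 0.37 (E2F1), 0.81 (E2F2), 0.29 (CDC25A) and -0.32 (E2F3). The part of these matches in the values was not tested.

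**Figure D5:**
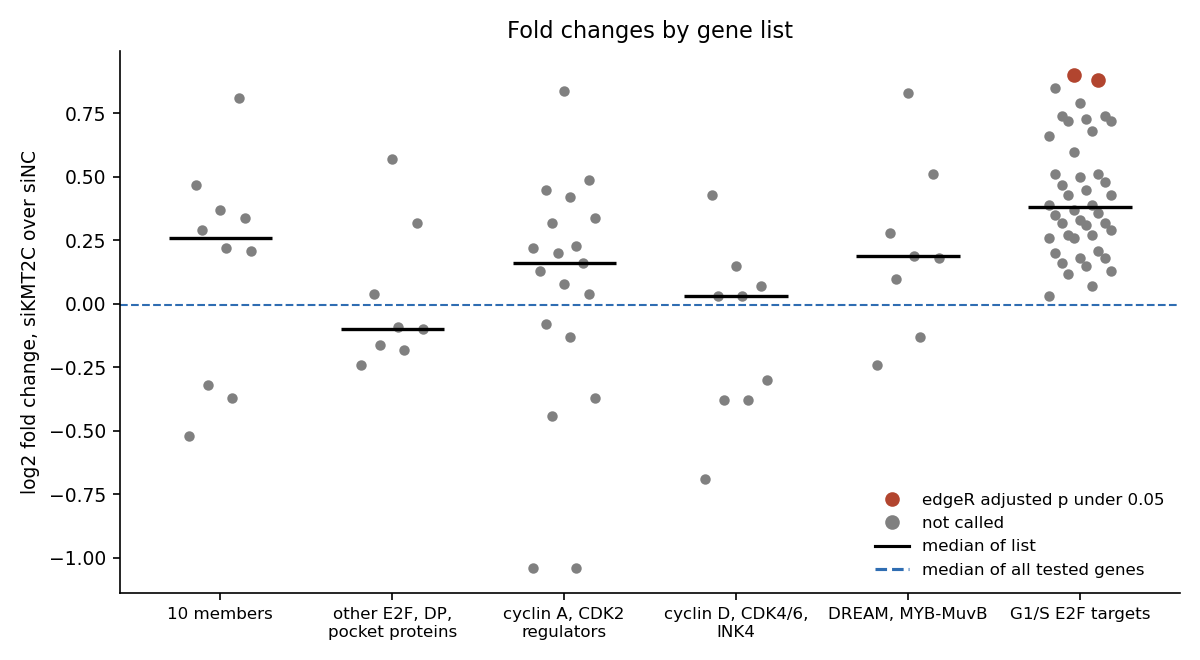
Log2 fold change of siKMT2C over siNC (vertical axis) for the 10 members and the 5 lists of related genes, 1 point a gene, with list medians as black lines and the median of all genes tested as a dashed line. CDC6 and CDC45 (red) are the calls, and all 44 G1/S E2F targets lie above 0 while the other lists straddle it.

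Tested genes whose 3′ UTR holds the 7-base word GTATAAA had a median log2 fold change of -0.11, against 0.01 for those without it (17.1% of 12308 genes with a 3′ UTR held it). Among the members it occurs 1 time each in E2F3, E2F8 and CDK2 and not in the other 7. CDKN1B, the member with the smallest p, does not carry it. A second word, TCGGAGA, counted in coding sequence and 3′ UTR together, was held by 9.79% of these genes, whose median was 0.04, against -0.02 for those without it. It occurs 1 time each in E2F1, E2F8 and CDK2. Genes with and without a word were not matched for GC content or length. The part of these words in the values above was not tested.

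The genes most like a member were found as those with the highest Pearson r of log2 CPM over the 6 libraries, among protein-coding genes with a mean log2 CPM of at least 3. For E2F1 they were DHRS4 (r = 0.998), WDR5 (0.998) and ATAD3B (0.997), whose own log2 fold changes were 0.37, 0.14 and 0.36. For CDKN1B they were GSN (0.998), SYT11 (0.997) and RHOB (0.997), with log2 fold changes of -0.68, -1.50 and -0.90. For CCNE2 they were CMC2 (0.999), SLC7A6OS (0.996) and ETFRF1 (0.994), for E2F8 SRSF2 (0.990), DDIAS (0.985) and SEH1L (0.978), and for CDK2 WDR59 (0.982), ERAL1 (0.981) and METTL26 (0.981). With 6 libraries and 9987 or 9988 genes compared, r values of this size are a description of these libraries. Between members the strongest likenesses were E2F7 with E2F8 (0.83) and E2F1 with CDC25A (0.82), and the strongest opposition was CCNE1 with CDK2 (-0.94).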

How the data were processed

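RNA was sequenced from 6 libraries, 3 siKMT2C and 3 siNC, grouped by the labels. The authors deposited 1 table with whole-number counts and FPKM per gene, per the file headers. CASAVA 1.8 and TopHat2 2.0.6 are named in the submitters' processing notes. Those notes name a mouse build, while the identifiers are human. The counting program, its strand setting, the annotation and the human build are not given in the sources used here. FPKM as deposited were the counts rescaled: in 11429 genes with at least 50 counts in every library the implied length was constant to within 1.1e-05. Symbols and coordinates come from GENCODE 29 (GRCh38), which held 58039 of 58302 identifiers.

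Counts were tested with edgeR 4.0.16 in R 4.3.3: filterByExpr, TMM scaling, a robust quasi-likelihood F test and Benjamini-Hochberg adjustment over 15063 genes. The SE is the absolute log2 fold change over the square root of F, and intervals are at 95%. The step was tested on simulated data. Deposited FPKM served for levels between genes and for ratios, so the order of levels and the size of ratios rest on the gene lengths behind it. Alternatives were RLE, library size alone, DESeq2 1.42.0, limma 3.58.1 (voom), no filter, a floor of 1 CPM in 3 libraries, a replicate block, correction of log2 values by loess (span 0.3) on the GC content and length of transcripts, with and without the block, and leaving out each library. Figures used Python 3.11.15 and matplotlib 3.10.9.

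The members, lists and tests were chosen with earlier results of these data known. Named genes are all members, KMT2C, the called genes or up to 4 smallest p-values of each list, and the 3 genes most like each of E2F1, E2F8, CCNE2, CDK2 and CDKN1B. CDK4, CDKN2A and the other genes given beside a member were added for context after their values were seen. Protein sequences were not used here, and 1 list of markers of another cell type is not reported here.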

Additional observations from a re-analysis of the deposited data

How the results depend on the processing

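No member changed sign under any of the 15 alternatives, and 9 of 10 were called under 0 of them. CDKN1B was called under 4 (adjusted p 0.0185 to 0.352 over all 15): DESeq2, the replicate block (0.0396, where 6.43% of genes were called), GC and length correction, and that correction with the block (0.0185, where 8.74% were), so members called were 1 there and 0 otherwise, also on leaving out each library (0 to 0). All genes changed numbered 226, and 855 with DESeq2 (402 higher, 453 lower), 968 with the replicate block (456 higher, 512 lower), 1345 with GC and length correction (710 higher, 635 lower) and 1316 with the correction and the block (714 higher, 602 lower). Leaving out 1 library gave 16 to 620 changed genes (6 to 262 higher, 10 to 358 lower), the most without siNC replicate 3 and the fewest without siNC replicate 2. Of 85 related genes tested 2 were called, and 12 with DESeq2, 14 with the replicate block, 16 with GC and length correction, 22 with both, and 0 to 5 on leaving out 1 library. The cause of these shifts was not tested, and each left-out fit also had fewer libraries. Replicate numbers did not pair the libraries throughout: deviations from the group means correlated at 0.02, 0.11 and 0.39 for numbers 1 to 3. The libraries numbered 3 were each other's best match in the other group. Those numbered 1 were not, and of number 2 only the siNC library matched its own number best. The log2 differences of cyclin E over CDKN1B and CDC25A over CDC25B stayed positive throughout. That of CCNE1 over CCNE2 (-0.11) ran from -0.36 to 0.08 on leaving out 1 library, and that of activator over atypical E2F (-0.06) from -0.20 to 0.16, so both changed sign. E2F matches were in 4 of the 8 member windows under every promoter setting, but the share of all windows differed. It was 3.31% with the 8-mers, 2.33% with them in windows from 150 bases before the start, and 27.2% with the 6-mers TCGCGC or GGCGCC. Whether the same member windows matched under each setting was not compared. Members at 9 to 34 counts per library (E2F2) are limited by counting.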
